A study of Mus musculus with 18 samples.

Results

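The change of the mouse liver transcriptome across lights on was described from 6 livers, 3 collected at zeitgeber time 21 (ZT21), late in the dark phase, and 3 at ZT1, early in the light phase. Zeitgeber time is given in hours from lights on. These 6 livers were taken by their labelled time from a series of 18, which holds 3 livers at each of 6 times spaced 4 h apart. Every mouse was a wild type (WT) male, 8 to 9 weeks old at death, kept under 12 h of light and 12 h of dark, and whole livers were frozen. Each mouse gave 1 liver, so no animal was followed across the transition, and per the methods of the study the livers sequenced were chosen among more mice for the quality of their RNA. Light, rest, feeding and the phase of the clock all change between ZT21 and ZT1 in such mice, and their parts cannot be told apart in this design.

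The circadian clock of a liver cell is a loop of transcription and repression. BMAL1 (gene Arntl) pairs with CLOCK or NPAS2, binds E-box sequences and drives the genes of its own repressors, the PER and CRY proteins, and of the nuclear receptors REV-ERB alpha and beta (Nr1d1, Nr1d2). The REV-ERBs repress Arntl through ROR elements, where the ROR receptors activate, and the PAR bZIP factors DBP, TEF and HLF act on D-boxes against the repressor NFIL3. In nocturnal animals such as mice, dawn marks the end of the feeding phase and the start of rest.

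From ZT21 to ZT1, 19 of 14449 genes changed at a Benjamini–Hochberg adjusted p below 0.05 in limma (0.131% of the genes tested). Of these, 4 were higher at ZT1 (0.0277%) and 15 were lower (0.104%). On the log2(value + 1) scale 10 of them changed at least 2-fold, 3 higher and 7 lower. Among the genes that BMAL1 and CLOCK drive, Per1, Per3, Cry2, Tef and Usp2 fell. Nr1d1 rose 5.95-fold on the linear scale at the same time. The activators Arntl, Clock and Npas2 did not pass the test.

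Promoter windows of Per1, Tef, Per3 and Nr1d1, picked from the called clock genes, are shown first. Cry2 and Usp2, also called, are not shown, and neither is among the genes found below to hold an E-box or D-box. Each window is the 250 bases before a transcript start in RefSeq (build GRCm38.p6), printed 5′ to 3′ on the strand of the gene. Capitals mark an E-box (CACGTG) or a D-box (TTATGTAA or TTACGTAA). Where RefSeq lists several starts, the start whose window holds most of these motifs is shown, so the windows were chosen for them. The Per1 window is chr11:69098699-69098948 on the plus strand, the Tef window chr15:81802423-81802672 on the plus strand, the Per3 window chr4:151044666-151044915 on the minus strand and the Nr1d1 window chr11:98775378-98775627 on the minus strand.
Per1: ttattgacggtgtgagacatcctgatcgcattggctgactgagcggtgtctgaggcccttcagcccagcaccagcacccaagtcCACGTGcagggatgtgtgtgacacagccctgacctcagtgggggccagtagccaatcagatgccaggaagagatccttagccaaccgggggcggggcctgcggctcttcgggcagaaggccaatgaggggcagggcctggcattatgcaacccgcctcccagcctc
Tef: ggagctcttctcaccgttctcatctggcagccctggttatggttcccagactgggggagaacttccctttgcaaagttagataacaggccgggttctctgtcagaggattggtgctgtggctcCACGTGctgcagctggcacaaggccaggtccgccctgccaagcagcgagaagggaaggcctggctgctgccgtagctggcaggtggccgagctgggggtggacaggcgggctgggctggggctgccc
Per3: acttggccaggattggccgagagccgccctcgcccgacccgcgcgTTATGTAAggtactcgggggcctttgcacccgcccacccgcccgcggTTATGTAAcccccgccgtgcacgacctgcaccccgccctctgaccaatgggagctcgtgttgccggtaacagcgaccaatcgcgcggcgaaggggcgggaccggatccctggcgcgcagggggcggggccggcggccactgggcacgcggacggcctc
Nr1d1: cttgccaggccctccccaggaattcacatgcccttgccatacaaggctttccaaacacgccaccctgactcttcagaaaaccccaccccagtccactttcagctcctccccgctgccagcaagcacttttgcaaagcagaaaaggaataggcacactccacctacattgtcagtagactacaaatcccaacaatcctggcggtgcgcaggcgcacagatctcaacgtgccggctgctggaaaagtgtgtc

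The Per1 window held 1 E-box that begins 166 bases before the start, and the Tef window 1 that begins 127 bases before it. In the Per3 window there were 2 D-boxes, which begin 205 and 158 bases before the start, and no E-box. No E-box, D-box or ROR element (ANTAGGTCA or ANTGGGTCA) was found in the Nr1d1 window, which says only that these letters are not in these 250 bases. Both strands were searched. An E-box was in 9.69% of the 10326 tested genes that matched a promoter by symbol, and a D-box in 0.813%. Of the 15 genes that fell, 11 matched, and 2 of these held an E-box (Per1 and Tef) and 1 a D-box (Per3). Of the 4 genes that rose, 2 matched, and none held an E-box, a D-box, a ROR element, a CRE (TGACGTCA) or a heat shock element. A ROR element was in 1.23% of the matched promoters of all genes and in 0 of the 11 that fell, a CRE in 2.95% and in 0, and a heat shock element in 0.455% and in 0. Over the 25 matched genes of the core clock and clock output lists, 8 promoters (32.0%) held an E-box, in Bhlhe41, Ciart, Coq10b, Cry1, Lonrf3, Per1, Tef and Tspan4. These matches describe letters and not sites of binding, and no test was run on them.

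The deposited values are estimated read counts plus 0.5, scaled by the authors to 1000000 reads of an effective library size, and they are not divided by gene length, so levels are compared between times and not between genes. Worked out from that lowest value, the 3 livers at ZT1 had between 10747428 and 14523185 estimated reads on genes. The 3 at ZT21 had between 11489612 and 13251350. The value taken as 0 reads lay between 0.0346 and 0.0478 in these livers, and 489 genes were at that floor in at least 1 of the 6. Pearson correlations across genes, on log2(value + 1), were between 0.9862 and 0.9907 for livers of the same time and between 0.9839 and 0.9896 for livers of different times, so the 2 ranges overlap. Albumin (Alb) took 6.23% to 6.89% of the values at these times. Of the 15 hepatocyte markers, 14 were in the table and none was called, with summed values from 100603 to 116494 at ZT21 and from 105603 to 113393 at ZT1. In such bulk samples, fewer cells of a type and less RNA per cell cannot be told apart.

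Changes are given on the log2(value + 1) scale with the SE of a limma fit over all 18 livers, which shares the spread between mice over the 6 times, and the change understates that of genes with low values. Separate animals make up each time, and the labels number no replicates, so the numbers 1 to 3 below only name livers in accession order. All 19 called genes had groups that did not overlap, which was also true of 2359 of all genes (16.3%).

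**Figure D1:**
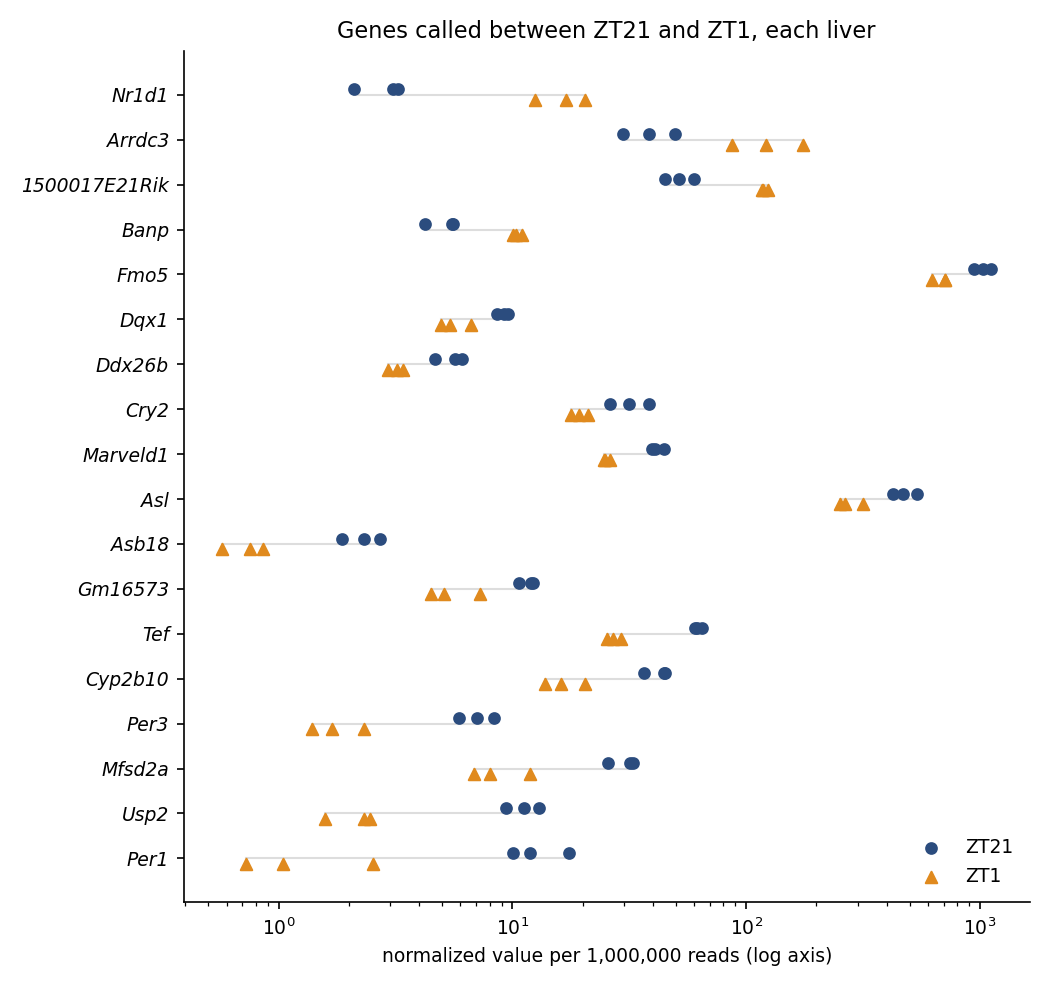
Normalized value in each of the 3 livers at ZT21 (circles) and the 3 at ZT1 (triangles) for 18 of the 19 genes with an adjusted p below 0.05, on a log axis in values per 1000000 reads. In every gene the groups stay apart, from Nr1d1 at the top, where ZT1 is higher, to Per1 at the bottom, where ZT1 is lower.

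Among the repressors of the clock, Per1 had the largest fall. Per1 (ENSMUSG00000020893, chr11:69095217-69109960) encodes a PERIOD protein that joins the complex blocking BMAL1 and CLOCK. Its normalized values were 17.5, 10.1 and 11.9 at ZT21 and 0.727, 1.05 and 2.53 at ZT1, so the highest liver at ZT1 was well under the lowest at ZT21. The fall was 2.57 on the log2 scale (a change of -2.57, SE 0.33, adjusted p = 0.00237), and the mean at ZT21 was 9.16 times that at ZT1. Per1 is also a target of the glucocorticoid receptor, whose part in these values was not tested. Over the day its mean was 28.0 (SD 3.47) at ZT9, 7.56 (SD 1.22) at ZT17 and 13.1 (SD 3.86) at ZT21. No test of Per1 between ZT17 and ZT21 is given. With the 6 livers fitted alone, where the spread rests on fewer animals, Per1 had an adjusted p of 0.0673 and was no longer called.

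Per3 (ENSMUSG00000028957, chr4:151003652-151044665), a paralog of Per1, had values of 5.93, 8.33 and 7.03 at ZT21 and 1.70, 2.32 and 1.39 at ZT1. All 3 livers at ZT1 were thus below the 3 at ZT21, with a change of -1.53 (SE 0.20, adjusted p = 0.00234). The gene overlaps Camta1 on the same strand, and reads that both could give cannot be assigned with certainty. Cry2 (ENSMUSG00000068742, chr2:92403646-92434043), which encodes a cryptochrome of the same repressor complex, went from 26.1, 38.3 and 31.7 to 17.8, 19.3 and 21.0. The change of -0.68 (SE 0.12, adjusted p = 0.0386) was close to the threshold. It was no longer called without ZT1 replicate 1 (adjusted p = 0.237), ZT1 replicate 2 (0.141), ZT1 replicate 3 (0.0680), ZT21 replicate 2 (0.158) or ZT21 replicate 3 (0.191). The call also ended with values rescaled to equal totals, with a pseudocount of 0.1, in the 6 livers alone and without the ZT5 livers, which left 5 of 14 alternatives. The libraries were taken as unstranded, here and below, because the methods of the study name no directional kit. Overlaps named here are of whole gene spans, introns included, and overlap of exons was not examined. Cry2 overlaps D930015M05Rik on the opposite strand, and unstranded reads from any shared exon sequence cannot be separated.

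The paralogs Per2 and Cry1 had changes of the same sign that did not pass the test. Per2 stood at 30.2, 19.1 and 22.6 at ZT21 and at 11.0, 13.6 and 11.9 at ZT1, with a change of -0.90 (SE 0.25, adjusted p = 0.269). Cry1, whose mean was highest at ZT21, had values of 45.2, 54.6 and 43.1 and then of 22.0, 28.1 and 26.1. Its groups did not overlap either, with a change of -0.88 (SE 0.18, adjusted p = 0.0855, 95% CI from -1.26 to -0.51). Ciart, a repressor that binds with the clock proteins, was at 1.74, 0.787 and 0.809 at ZT21 and at 0.104, 0.0455 and 0.430 at ZT1. The second of those ZT1 livers was at the value taken as 0 reads, and the difference had an adjusted p of 0.448.

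Of the genes of the REV-ERB repressors, Nr1d1 rose and Nr1d2 did not pass the test. Nr1d1 (ENSMUSG00000020889, chr11:98767932-98775333) had values of 2.10, 3.23 and 3.08 at ZT21 and of 17.0, 12.5 and 20.4 at ZT1, and every liver at ZT1 was above every liver at ZT21. The change was 2.20 (SE 0.28, adjusted p = 0.00234), the largest rise among the called genes, and it went on to a mean of 117 at ZT5. Nr1d1 overlaps Thra on the opposite strand, and unstranded reads from any shared exon sequence cannot be separated. Nr1d2, its paralog, went from 9.51, 11.4 and 13.8 to 17.9, 16.6 and 20.4. The groups were apart there as well, but the change of 0.63 (SE 0.16) had an adjusted p of 0.204.

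Rora, the gene of a ROR receptor that acts at the same elements as the REV-ERBs, had values of 74.4, 104 and 77.8 at ZT21 and of 77.2, 80.4 and 87.5 at ZT1. The groups of Rora overlapped and its change was -0.05 (95% CI from -0.34 to 0.24). Bhlhe40, which encodes a repressor at E-boxes, stood at 78.8, 71.1 and 91.5 at ZT21 and at 33.3, 43.7 and 52.7 at ZT1. Its groups were apart, but the change of -0.90 (SE 0.28) had an adjusted p of 0.343.

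The activators stood near the top of their daily range at both times. Arntl (ENSMUSG00000055116, chr7:113207465-113314126) had values of 23.8, 31.3 and 23.7 at ZT21 and of 29.6, 33.3 and 31.8 at ZT1, and these overlap. The change was 0.27 (SE 0.25, adjusted p = 0.797), with a 95% CI from -0.27 to 0.80, against a mean of 1.31 at ZT9. Clock, its partner, went from 57.8, 65.3 and 64.9 to 85.0, 73.8 and 72.8, with a change of 0.29 (SE 0.11, adjusted p = 0.452). Npas2, which can stand in for CLOCK, was at 11.6, 13.4 and 9.50 and then at 10.8, 10.5 and 12.3. Its change was -0.02 (95% CI from -0.37 to 0.32), while its mean was 1.19 at ZT17 and 0.372 at ZT5, so the pair of times around dawn held most of its expression.

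**Figure D2:**
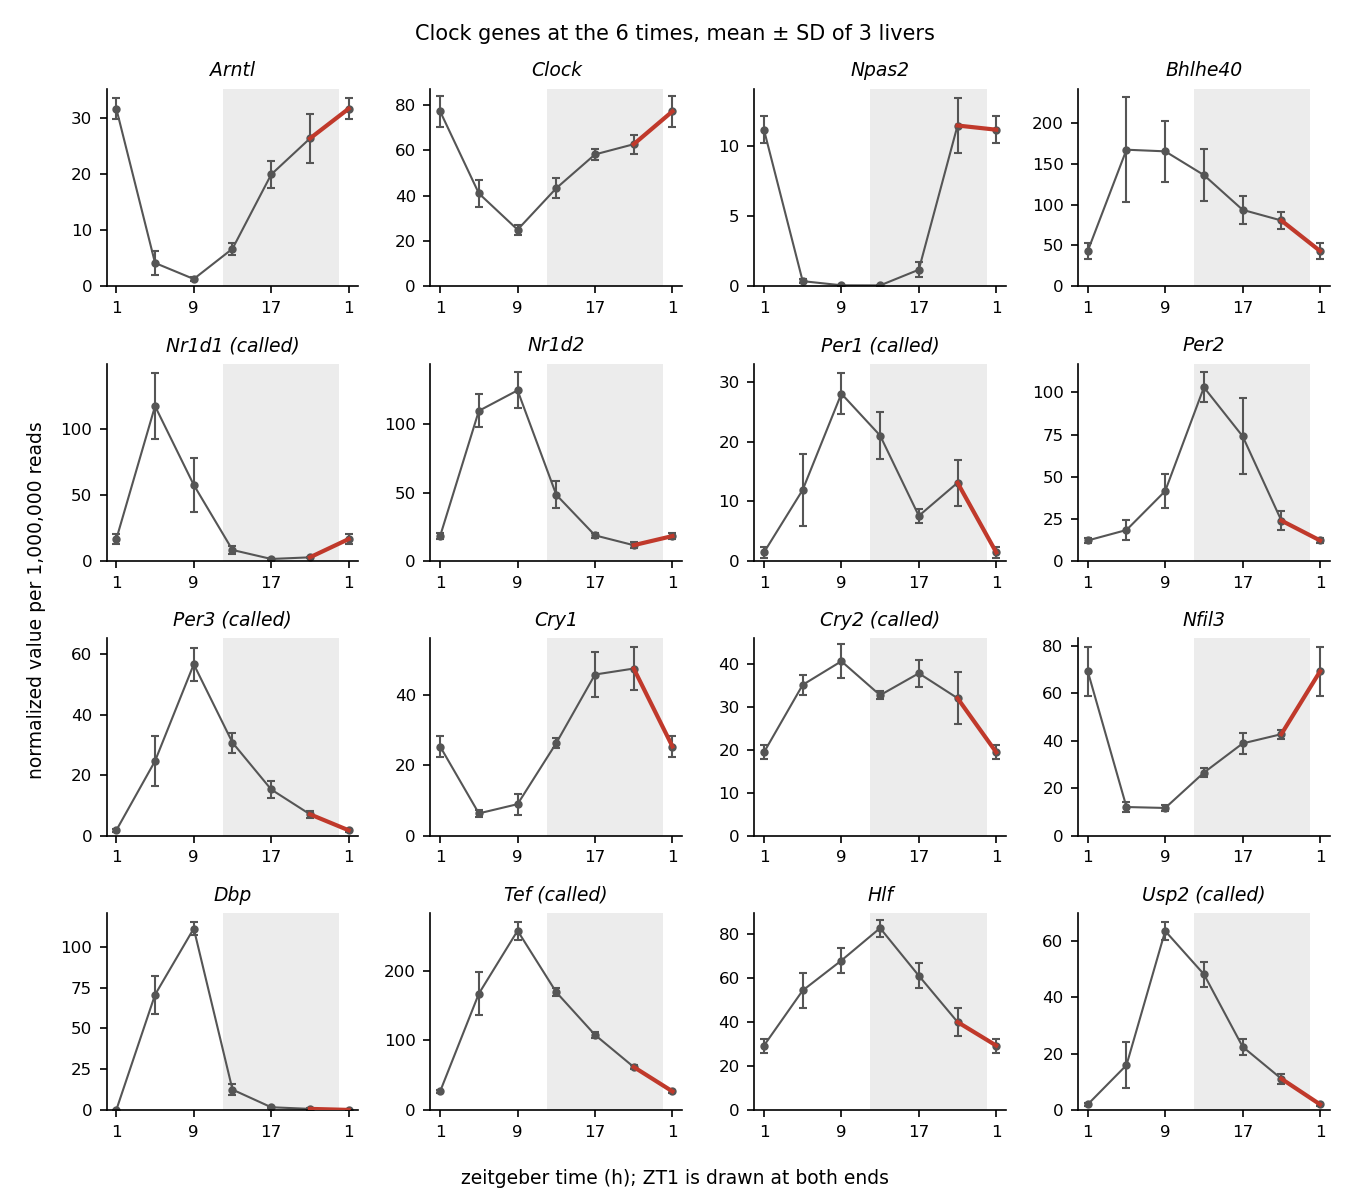
Mean ± SD of the normalized value (per 1000000 reads) of 16 clock genes in 3 livers at each zeitgeber time, with the dark phase shaded and ZT1 drawn at both ends. The thick line marks ZT21 to ZT1, which is near a maximum for Arntl, Clock and Npas2 and near a minimum for Per3, Tef and Usp2.

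Of the factors that carry the rhythm to other genes, Tef had the smallest p of all genes. Tef (ENSMUSG00000022389, chr15:81802421-81826863), a PAR bZIP activator of D-box genes, had values of 60.2, 64.7 and 61.5 at ZT21 and of 27.0, 25.4 and 29.2 at ZT1. The livers of a time differed little, and the change was -1.16 (SE 0.11, adjusted p = 0.000204). Dbp, its relative, was already down to 1.01, 1.29 and 0.515 at ZT21 and stood at 0.338, 0.439 and 0.148 at ZT1. On the log2(value + 1) scale this was a change of -0.55 (SE 0.18, adjusted p = 0.360), which understates the ratio at such low values. Hlf, the third member, went from 36.9, 47.4 and 35.8 to 33.0, 28.0 and 27.3 (change of -0.43, SE 0.13, adjusted p = 0.324). Nfil3, which represses the same D-box sequences, was higher at ZT1, with 57.5, 77.2 and 73.3 after 41.4, 45.0 and 42.1. The Nfil3 change of 0.67 (SE 0.13) missed the threshold with an adjusted p of 0.0813.

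Usp2 (ENSMUSG00000032010, chr9:44067021-44095627), a deubiquitinase under control of the clock, fell from 13.0, 9.40 and 11.2 to 2.46, 2.32 and 1.58. Usp2, Tef and Arrdc3 each overlap genes on the opposite strand, and unstranded reads from any shared exon sequence cannot be separated. The ranges of Usp2 were far apart and the change was -1.97 (SE 0.24, adjusted p = 0.00227). Over the 12 clock output factors, 0 rose and 2 fell, and at an unadjusted p below 0.05 there were 1 higher and 7 lower. That compares with 606 genes higher (4.19%) and 720 lower (4.98%) of all genes at the same unadjusted p. The median change of the list was -0.49, against 0.003 over all genes. Of the 20 core clock genes, 1 rose and 4 fell, and 3 were higher and 8 lower at an unadjusted p below 0.05. Wee1, the gene of a kinase that delays mitosis, was at 2.95, 5.18 and 3.54 and then at 1.83, 1.68 and 1.86 (change of -0.78, SE 0.20, adjusted p = 0.209). The remaining members that passed no test included Csnk1d, a kinase of the PER proteins, whose change was 0.00 (95% CI from -0.21 to 0.21).

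Outside the clock lists, 12 genes were called. Arrdc3 (ENSMUSG00000074794, chr13:80883384-80896042), the gene of an alpha-arrestin that takes part in the trafficking of receptors, rose from 29.7, 49.7 and 38.3 at ZT21 to 175, 122 and 86.9 at ZT1. The 3 livers at ZT1 spread widely but all lay above those at ZT21, with a change of 1.65 (SE 0.28, adjusted p = 0.0378). The call was lost without ZT1 replicate 1 (adjusted p = 0.202), ZT1 replicate 2 (0.126), ZT21 replicate 1 (0.176) or ZT21 replicate 3 (0.148). It was lost as well in the 6 livers alone, with a pseudocount of 0.1, with a robust variance trend and without the ZT5 livers, and was kept in 6 of 14 alternatives. The mean of Arrdc3 was lowest at ZT21 and highest, at 291, at ZT5.

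Banp (ENSMUSG00000025316, chr8:121949750-122029258), whose protein binds CGCG elements in promoters, rose from 4.24, 5.51 and 5.58 to 10.4, 11.0 and 10.1. The livers at ZT1 lay close together and above all of ZT21, with a change of 0.92 (SE 0.14, adjusted p = 0.0101). Banp was not called without ZT1 replicate 1 (adjusted p = 0.0549), ZT1 replicate 2 (0.0600) or ZT21 replicate 1 (0.0661), nor in the 6 livers alone. It overlaps Gm20388 on the same strand and Gm27011 and Gm17709 on the opposite one. Reads from any exon sequence these genes share cannot be told apart with certainty. The noncoding 1500017E21Rik (ENSMUSG00000087579, chr19:36614052-36705641) went from 60.1, 51.6 and 45.1 to 124, 118 and 117. It is the only called gene with its highest mean at ZT1, and its change of 1.19 (SE 0.21) had an adjusted p of 0.0386. Leaving out any of the 6 livers ended that call, with adjusted p-values of 0.202, 0.141 and 0.106 without ZT1 replicates 1, 2 and 3 and of 0.0781, 0.137 and 0.219 without ZT21 replicates 1, 2 and 3. The gene overlaps Hectd2 on the opposite strand, and reads from any shared exon sequence cannot be told apart.

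Mfsd2a (ENSMUSG00000028655, chr4:122946850-122961188), a transporter of lysophosphatidylcholine that fasting induces in liver, fell from 32.7, 25.6 and 31.8 to 6.89, 8.05 and 11.9. No liver of a group came near the other group, and the change was -1.67 (SE 0.21, adjusted p = 0.00234). Mfsd2a was at its lowest mean of the day at ZT1, with 29.9 again at ZT5. In the fit of the 6 livers alone its adjusted p was 0.0673. Cyp2b10 (ENSMUSG00000030483, chr7:25897620-25926624), a cytochrome P450 induced by the receptor CAR, fell from 44.8, 44.4 and 36.5 to 13.8, 20.5 and 16.1. All livers at ZT1 were lower, with a change of -1.28 (SE 0.17, adjusted p = 0.00322 and 0.0929 in the fit of the 6 livers alone). Reads of Cyp2b10 can be shared with its near-identical Cyp2b neighbours, so its level is less certain.

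Asl (ENSMUSG00000025533, chr5:130011258-130029247), the argininosuccinate lyase of the urea cycle, had values of 538, 469 and 424 at ZT21 and of 253, 265 and 315 at ZT1. The change was -0.78 (SE 0.14, adjusted p = 0.0386), and the call held without ZT1 replicate 3 but not without ZT1 replicate 1 (adjusted p = 0.231), ZT1 replicate 2 (0.155) or ZT21 replicates 1, 2 and 3 (0.196, 0.137 and 0.0765). Marveld1, which encodes a membrane protein with a MARVEL domain, fell from 44.7, 39.5 and 40.7 to 25.0, 26.1 and 24.6. The groups were tight, and the change was -0.70 (SE 0.11, adjusted p = 0.0101). Without a liver the Marveld1 adjusted p was at most 0.0674, and it was above the threshold without ZT1 replicate 1 (0.0615), ZT1 replicate 3 (0.0526), ZT21 replicate 1 (0.0674) and ZT21 replicate 3 (0.0545). Asb18, of the family of ankyrin repeat proteins with a SOCS box, was low throughout, at 2.31, 1.87 and 2.73 and then at 0.574, 0.755 and 0.856, yet the groups were apart (change of -0.93, SE 0.16, adjusted p = 0.0386). Among the 6 fits that left out a liver it was called only without ZT21 replicate 2, with adjusted p-values of 0.212, 0.126 and 0.0743 without ZT1 replicates 1, 2 and 3 and of 0.167 and 0.219 without ZT21 replicates 1 and 3. The noncoding Gm16573 is antisense to Parp4 and not separable from it, without strand, in any shared exon sequence. It went from 12.0, 12.2 and 10.7 to 5.10, 4.51 and 7.24 (change of -0.95, SE 0.17, adjusted p = 0.0386). That call held without ZT1 replicate 3 and was lost without ZT1 replicates 1 and 2 (adjusted p = 0.202 and 0.164) or ZT21 replicates 1, 2 and 3 (0.167, 0.137 and 0.120).

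The last 3 called genes had smaller changes and are named because they complete the list, after their values were seen. Fmo5, a flavin monooxygenase, fell from 1119, 946 and 1035 to 624, 709 and 709 (change of -0.60, SE 0.10, adjusted p = 0.0253). Dqx1, a gene of the DEAH box family, was at 9.17, 9.63 and 8.61 and then at 4.95, 6.67 and 5.41 (change of -0.61, adjusted p = 0.0386). Ddx26b, related to a subunit of the Integrator complex, went from 5.69, 4.68 and 6.09 to 2.94, 3.41 and 3.20 (change of -0.63, adjusted p = 0.0386). Fmo5 lost its call without ZT1 replicates 1, 2 and 3 (adjusted p = 0.183, 0.0616 and 0.0526) or ZT21 replicates 1 and 3 (0.147 and 0.128). Dqx1 was called without ZT1 replicate 2 only, with 0.245 and 0.132 without ZT1 replicates 1 and 3 and 0.167, 0.162 and 0.129 without ZT21 replicates 1, 2 and 3. Ddx26b was called without ZT21 replicate 2 only, with 0.225, 0.108 and 0.106 without ZT1 replicates 1, 2 and 3 and 0.176 and 0.219 without ZT21 replicates 1 and 3.

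Over all 19 genes, 8 were called in each of the 6 fits that left out 1 liver, among them Nr1d1, Per1, Per3, Tef, Usp2, Mfsd2a and Cyp2b10, and 11 were lost in at least 1 of them. Over all 14 alternatives the call was kept in 9 for Marveld1, 8 for Fmo5, 7 for 1500017E21Rik and Gm16573, 6 for Asl and Asb18, 5 for Dqx1 and 4 for Ddx26b, and the 6 livers alone ended each of these calls but that of 1500017E21Rik. The count of called genes was 10 without ZT1 replicate 1, 11 without ZT1 replicate 2, 9 without ZT21 replicate 1 and 9 without ZT21 replicate 3. It was 15 without ZT1 replicate 3 and 17 without ZT21 replicate 2. The 3 called genes at least 2-fold higher became 1 without ZT1 replicate 1, ZT1 replicate 2, ZT21 replicate 1 or ZT21 replicate 3. Among the 15 genes that fell, 11 had their lowest mean of the 6 times at ZT1, 3 at ZT5 and 1 at ZT9. Of all genes, 14.6% had their lowest mean at ZT1. Of the 4 that rose, 1 had its highest mean at ZT1, 2 at ZT5 and 1 at ZT13, against 14.6%, 20.9% and 18.8% of all genes.

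The transition across lights on was the quietest of the 6 steps of the day in number of calls. In the same fit, ZT1 to ZT5 gave 706 called genes (4.89%), ZT5 to ZT9 222 (1.54%), ZT9 to ZT13 1334 (9.23%), ZT13 to ZT17 174 (1.20%) and ZT17 to ZT21 218 (1.51%). The steps have the same number of livers and share the SE of each gene, with a median of 0.152. The median size of a change was 0.121 on the log2 scale from ZT21 to ZT1, and 0.127 to 0.180 in the other steps. From ZT21 to ZT1, 53 genes moved by at least 1 on the log2 scale, called or not, against 80 to 203 in the others. On the log2(value + 1) scale, the 95% CI of the change lay within 1 unit of 0 for 13805 genes (95.5%) and within 0.5 for 8346 (57.8%). Genes with low values can hardly move that far on this scale, so for them the bound says little about the ratio. Dbp lay within 1 unit (95% CI from -0.93 to -0.17), though its mean at ZT21 was 3.04 times that at ZT1. For the genes outside a bound, a change of that size on this scale was not excluded at this depth and number of livers. Neighbouring steps share the livers of a time. The ZT5 livers enter ZT1 to ZT5 and ZT5 to ZT9, and 1 of them resembled another time in earlier work. They were kept in this fit. The step kept the fewest calls, between 14 and 28, under the 6 other choices of pseudocount, filter, scaling and variance model, where the other steps had between 135 and 1653.

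**Figure D3:**
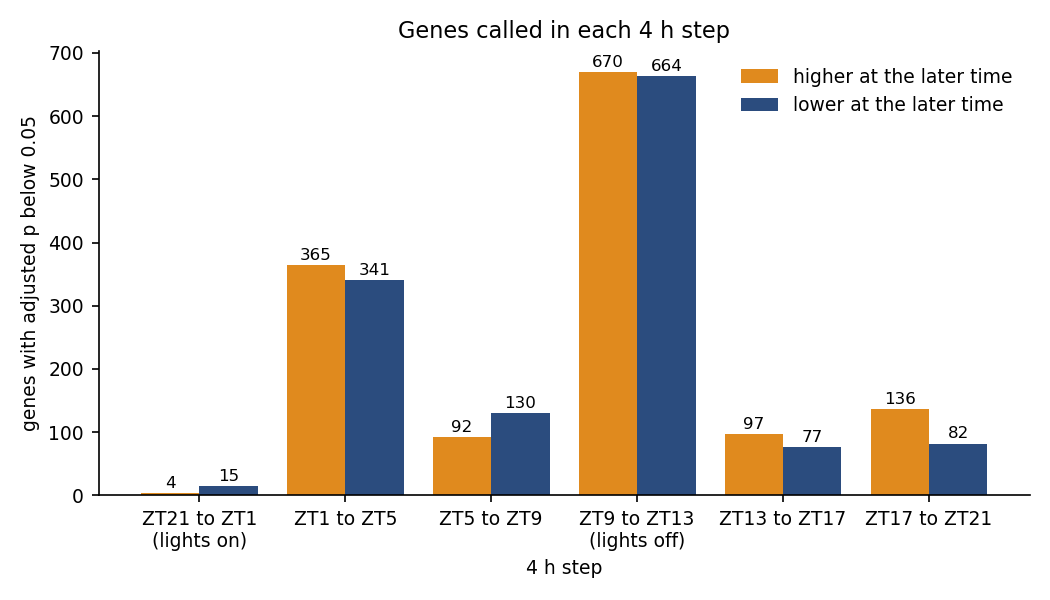
Number of genes with an adjusted p below 0.05 in each of the 6 steps of 4 h, higher or lower at the later time, from the same limma fit. ZT21 to ZT1 has 4 and 15, and ZT9 to ZT13, across lights off, has 670 and 664.

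The step across lights off, ZT9 to ZT13, lies 12 h away and uses other mice, so the changes can be tested against each other. They differed in 825 genes (5.71%), of which 385 had the higher change across lights on and 440 the lower. Of these 825, 658 were called across lights off and 158 were called in neither step. The number was 507 without ZT1 replicate 1 and 495 without ZT21 replicate 1. The sum of both changes differed from 0 in 223 genes (1.54%). Of the 19 genes called across lights on, 16 differed between the steps. The 19 were selected for their change across lights on, which is part of that difference. The count of 16 thus follows largely from the selection and says little about the 2 light changes. Of the 19, 9 were called across lights off as well. These 9 genes make up 47.4% of the list of lights on, while 9.23% of all genes were called across lights off. They make up 0.675% of the list of lights off, while 0.131% of all genes were called across lights on. Both steps share the SE of each gene, so the lists are not independent, and no test was run on the overlap. The 9 genes moved the opposite way in 6 cases and the same way in 3.

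Nr1d1, Cyp2b10, Asl, Gm16573 and Fmo5 were among those that went opposite ways. Nr1d1 rose by 2.20 across lights on and had a change of -2.63 across lights off (adjusted p = 7.76e-05), and the difference of 4.83 had an adjusted p of 1.50e-05. Cyp2b10, with a change of -1.28 across lights on, rose by 3.44 across lights off (adjusted p = 2.72e-08), from a mean of 5.45 at ZT9 to 69.4 at ZT13, and the difference was -4.72 (adjusted p = 4.29e-08). Asl and Fmo5 had changes of 0.80 and 0.94 across lights off and sums of 0.02 and 0.34 that were not called (adjusted p = 0.979 and 0.286).

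Banp, Per3 and Tef went the same way at both. Banp rose by 0.92 across lights on and by 1.22 across lights off (adjusted p = 0.000124), with means of 5.11 at ZT21, 10.5 at ZT1, 5.38 at ZT9 and 14.0 at ZT13. The sum of 2.13 had an adjusted p of 3.97e-05, and the difference of -0.30 (adjusted p = 0.398) was not called. The changes of Per3 were -1.53 and -0.86 and those of Tef -1.16 and -0.60. For Tef the difference of -0.56 was called (adjusted p = 0.0415), and for Per3 that of -0.67 was not (adjusted p = 0.170). The changes of Per1, Usp2 and Mfsd2a were lower across lights on than across lights off, with differences of -2.17 (adjusted p = 0.0151), -1.57 (adjusted p = 0.0141) and -2.17 (adjusted p = 0.00113). Dbp showed the reverse order, with -0.55 across lights on and -3.05 across lights off (difference of 2.50, adjusted p = 0.000111). Per2 and Cry1, not called across lights on, also differed between the steps, by -2.21 (adjusted p = 0.00256) and -2.38 (adjusted p = 0.000120).

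**Figure D4:**
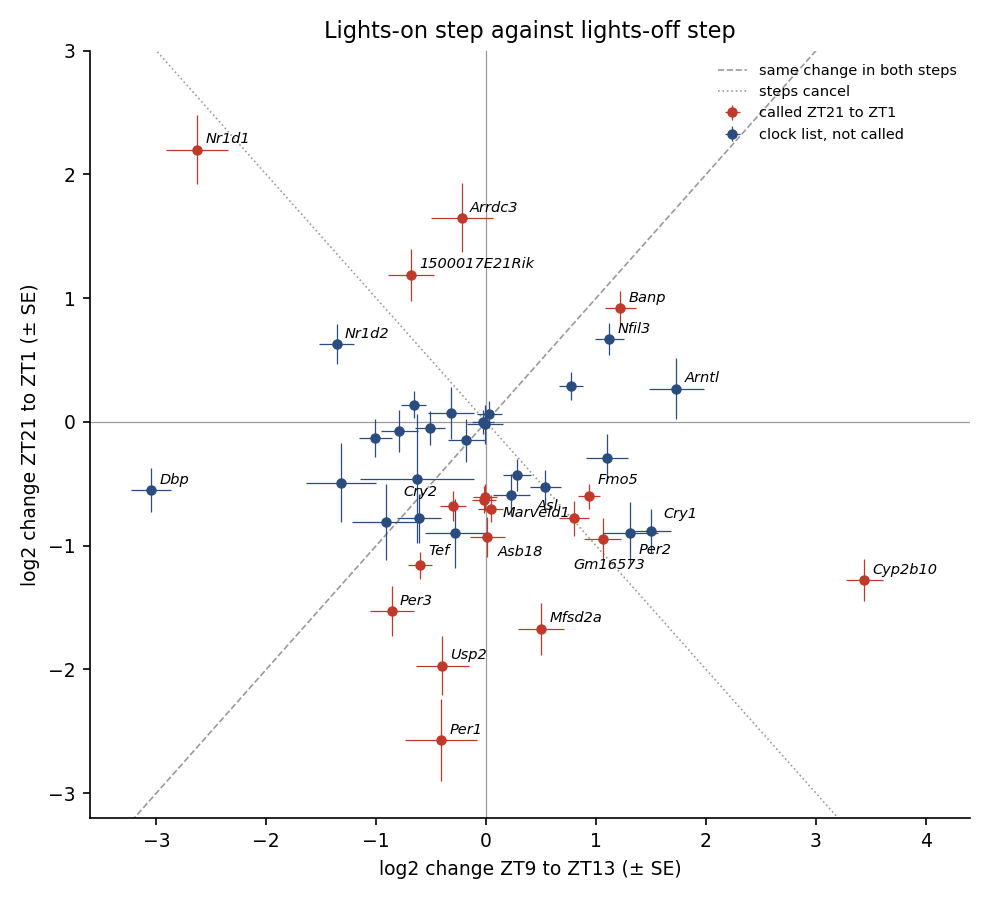
Log2 change from ZT21 to ZT1 against that from ZT9 to ZT13, each with its SE, for the called genes and the clock lists, with 1 called gene left out. Nr1d1 lies near the line on which both steps cancel, Banp near the line of equal change, Per3 and Tef lower across lights on though the difference was called for Tef and not for Per3, and Cyp2b10 far to the right of both.

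Other pathways of the liver were read through lists of genes, counted beside the background of all genes. Over 21 pathway lists, called members outside the clock lists were Asl (gluconeogenesis and amino acid catabolism, 1 of 33), Per1 again (glucocorticoid response, 1 of 17 tested) and Cyp2b10 (heme, P450 and xenobiotic metabolism, 1 of 34 tested), all lower at ZT1. No member of the other lists was called, nor any of the 77 cytosolic ribosomal protein genes. The lists are described below at an unadjusted p below 0.05, where 4.19% of all genes were higher and 4.98% lower at ZT1, and no member named from here on passed the adjusted test from ZT21 to ZT1 except Per1.

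The immediate early genes, which cells transcribe within minutes of a stimulus, had members higher at ZT1. Of 20 tested, 7 were higher and 0 lower at an unadjusted p below 0.05, with a median change of 0.36. Egr1 (ENSMUSG00000038418), a zinc finger factor, had the largest log2 change of all genes tested, with values of 14.2, 29.9 and 2.77 at ZT21 and of 112, 122 and 86.6 at ZT1. The groups were apart, but the livers at ZT21 differed widely among themselves, and the change of 3.15 (SE 0.67) had an adjusted p of 0.109. Fos, a subunit of the AP-1 factor, was at 1.01, 1.78 and 0.554 and then at 3.15, 2.96 and 2.06 (change of 0.84, adjusted p = 0.144). Dusp6, a phosphatase that restrains ERK, went from 19.2, 26.5 and 20.5 to 36.6, 37.8 and 40.3 (change of 0.78, adjusted p = 0.142). Jun, Junb, Zfp36 and Nr4a1 had changes of 0.72, 0.84, 0.70 and 0.83. In Nr4a1 this rested on ZT1 replicate 3, at 6.74, beside 1.70 and 1.77 in the others.

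No marker gene of cells other than hepatocytes was called, but the median change of some lists was above 0. The median change was 0.24 for the 14 Kupffer cell and macrophage markers, of which 13 had a positive change. It was 0.23 for the 14 stellate cell and fibroblast markers (13 positive) and 0.14 for the 13 endothelial markers (12 positive). The 9 tested lymphocyte markers had 0.15 (8 positive) and the 5 erythroid markers 0.21 (4 positive). Medians of the bile duct and neutrophil lists were -0.06 and -0.02. Of all 14449 genes, 7358 had a positive change. Markers read in the same livers are not independent observations. Summed values ran from 190 to 294 at ZT21 and from 223 to 414 at ZT1 for Kupffer cells. For stellate cells they ran from 320 to 371 and from 359 to 416. For endothelial cells they ran from 203 to 307 and from 251 to 376, and in each list the ranges overlap. For the 9 lymphocyte markers in the table the sums ran from 14.3 to 17.8 and from 17.6 to 33.0, and for the 5 neutrophil markers from 3.61 to 4.35 and from 3.08 to 4.13. No tested marker of these lists had a mean below 0.1. Ighm, of B cells, went from 7.71, 7.75 and 9.41 to 21.7, 9.23 and 13.1. The part of these cells in the values of the immediate early genes was not tested. The sums of the 6 bile duct markers were 57.0 to 70.7 and 57.9 to 62.6, those of the 5 erythroid markers 175 to 296 and 209 to 407, and of the 12 pancreas and adipose markers 2 were in the table, with sums from 0.208 to 0.663.

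Genes of bile acid synthesis and transport had changes of both signs. Of 28, 8 were higher and 1 lower at an unadjusted p below 0.05, with a median of 0.10. The member lower at ZT1 was Cyp7a1, the rate-limiting enzyme of bile acid synthesis, at 102, 158 and 131 and then at 74.4, 32.5 and 50.0 (change of -1.35, SE 0.45, adjusted p = 0.372). The higher members included transporters of the canalicular membrane. Abcg8, which with Abcg5 exports sterols into bile, had values of 36.2, 35.4 and 33.9 at ZT21 and of 48.8, 68.2 and 60.5 at ZT1 (change of 0.72, SE 0.14, adjusted p = 0.0670). Abcg5 itself overlaps Abcg8 on the opposite strand and went from 39.1, 33.5 and 34.6 to 39.6, 53.9 and 50.8 (change of 0.41, adjusted p = 0.483). Abcb11, the bile salt export pump, was at 740, 772 and 744 and then at 863, 881 and 1004 (change of 0.28, adjusted p = 0.360). Across lights off, 1 of the 28 was called higher and 7 lower, against 670 and 664 of all 14449 genes, and none was called across lights on. The changes of the steps differed in 8 of the 28, 7 of them with the higher change across lights on. Over all genes they differed in 825 (5.71%), 385 of them higher across lights on. Those with the higher change include Abcg8 (difference of 1.68, adjusted p = 0.000281) and Abcb11 (0.59, adjusted p = 0.0155). Their changes across lights off were -0.96 and -0.30.

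The heat shock and cold response list had changes of both signs. Of 24 genes, 5 were higher and 8 lower at an unadjusted p below 0.05, with a median of -0.01. Hspa1b, an inducible chaperone with a near-identical copy in Hspa1a, went from 9.17, 7.72 and 6.68 to 19.2, 19.2 and 30.1 (change of 1.41, SE 0.32, adjusted p = 0.142). Hspa1a had a change of 0.22 (SE 0.41, adjusted p = 0.919), and reads that both copies could give cannot be assigned with certainty. Hspb1, a small heat shock protein, went the other way, from 24.7, 29.0 and 29.2 to 12.1, 13.9 and 14.3 (change of -0.99, SE 0.29, adjusted p = 0.305). Across lights off, 18 of the 24 rose and 1 fell, against 670 and 664 of all 14449 genes. The changes of the steps differed in 17 of the 24, of which 16 were lower across lights on, beside 5.71% of all genes, with 440 of these 825 lower. Hsp90aa1, the inducible HSP90, had changes of -0.47 and 1.83 (difference of -2.31, adjusted p = 0.000317).

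Of the metabolic lists, gluconeogenesis and amino acid catabolism had 0 higher and 6 lower of 33, with a median of -0.14, among them Gpt2, an alanine aminotransferase, at 345, 326 and 327 and then at 244, 175 and 234 (change of -0.62, adjusted p = 0.204). The glycolysis and glycogen list had 1 higher and 6 lower of 27. Pfkfb1, which sets the level of fructose 2,6-bisphosphate, went from 53.8, 44.2 and 42.8 to 23.6, 21.8 and 31.8 (change of -0.85, SE 0.19, adjusted p = 0.142). In the list of NAD, methionine and polyamine metabolism, 2 were higher and 7 lower of 33. Mat1a, which makes S-adenosylmethionine in liver, had values of 1680, 1896 and 1427 and then of 1136, 963 and 1194 (change of -0.60, adjusted p = 0.207). Nampt, the rate-limiting enzyme of NAD salvage, was at 64.5, 76.9 and 71.4 and then at 53.2, 51.1 and 51.7 (change of -0.44, adjusted p = 0.358). The P450 and xenobiotic list had 1 higher and 6 lower of 34, and ribosome biogenesis 0 higher and 4 lower of 40.

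Fatty acid synthesis had 0 higher and 2 lower of 24, with Thrsp, a lipogenic factor, at 755, 484 and 713 and then at 251, 256 and 390 (change of -1.12, SE 0.38, adjusted p = 0.376). Cholesterol synthesis and uptake had 1 higher and 0 lower of 26, and fatty acid oxidation and ketogenesis 2 higher and 3 lower of 33. Bdh1, a ketone body dehydrogenase, went from 139, 139 and 137 to 181, 185 and 174, a small change of 0.37 (SE 0.08, adjusted p = 0.0855) between tight groups. The glucocorticoid list had 0 higher and 5 lower of 17 tested, Per1 included, and the unfolded protein response 3 higher and 1 lower of 30. The lists of insulin signalling and FOXO targets (2 higher and 2 lower of 26), the growth hormone axis (0 and 1 of 19), cell cycle and p53 (0 and 3 of 26), nuclear receptors (1 and 4 of 32), apolipoproteins (1 and 1 of 23), coagulation and complement (0 and 1 of 36) and cytosolic ribosomal proteins (0 and 2 of 77) completed the account.

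**Figure D5:**
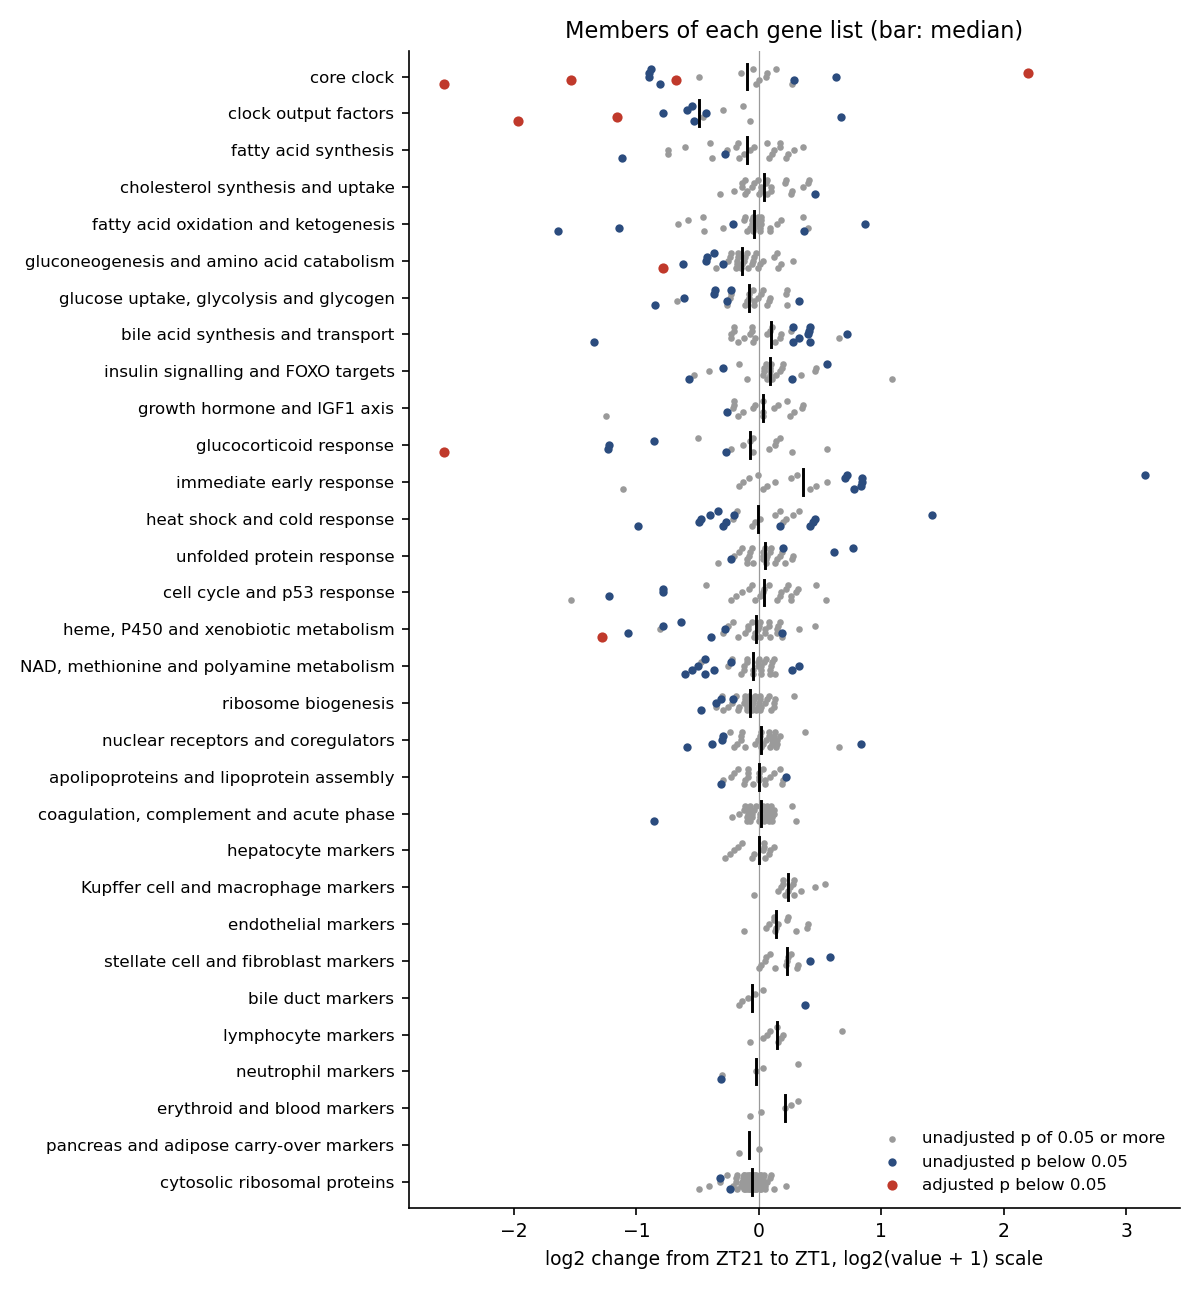
Log2 change from ZT21 to ZT1 of the tested members of each gene list, with 1 called member of the core clock list left out, the median of the whole list as a bar and points coloured by the p of the member. The called members are in the clock lists and are Asl, Per1 and Cyp2b10 elsewhere, and the immediate early list extends furthest to the right, with Egr1 at 3.15.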

How the data were processed

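RNA sequencing was done on polyA RNA of 18 whole livers. The authors prepared libraries with the NEBNext Ultra RNA kit, called bases with CASAVA 1.8.2, removed adapters with cutadapt, estimated reads per GRCm38 gene with RSEM 1.2.20 and normalized them with limma. The table they deposited holds a linear signal. It was taken as the estimated reads plus 0.5, scaled to 1000000 reads of the authors' library size, a formula the paper does not state. The values are not counts, so tests for counts were not used. Of 14451 genes, 2 that never left the floor were omitted.

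In limma 3.58.1 (R 4.3.3), log2(value + 1) was fitted with a mean for each of the 6 times, and contrasts were adjusted by Benjamini–Hochberg over 14449 genes. The fit was also run on simulated data. No result of that run is given here, so the power with 3 livers a time is not stated. The genes named are the 12 largest rises and falls that were called, did not overlap between groups and had a mean of at least 1, all clock list members, up to 3 called members each way of the other lists or that with the smallest p, and the most abundant marker of each cell type. Of the called genes, 1 is counted but not reported here by name. Others were named after their values were seen. The members and lists were chosen with earlier results of these data known. Coordinates are from GENCODE M21 on GRCm38, and promoters from RefSeq. Depth limits values near the floor. Figures used Python 3.11.15 and matplotlib 3.10.9. Alternatives covered the livers in the fit, pseudocount, filter, scaling, variance model and each liver left out.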

Additional observations from a re-analysis of the deposited data

How the results depend on the processing

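Over 14 alternatives, the 19 called genes kept their direction in all 266 gene and alternative pairs and their side of the threshold in 182. All 19 had groups that did not overlap. Leaving out livers or changing the pseudocount, filter or variance model thus could not turn a direction, and the kept direction says little. Of these 5 were called in all 14, among them Nr1d1, Usp2, Per3 and Tef. With the 6 livers of ZT21 and ZT1 fitted alone, which leaves fewer animals to estimate the spread, 2 genes were higher and 6 lower. The genes higher were 2 with a pseudocount of 0.1, 13 with a pseudocount of 5 and 11 with a robust variance trend, of which the cause was not tested. With 1 liver left out, which leaves fewer samples, between 1 and 5 genes were higher, 7 to 12 lower, 1 to 4 at least 2-fold higher, and 495 to 774 differed between the steps. Without the ZT5 livers, an alternative chosen after seeing the data because 1 of them resembled another time in earlier work, 15 genes were called, 13 of them among the 19. Rescaling moved the median change by 0.010 at most. Only named genes were followed in this way. Among the named genes not called, 15 of 1371 gene and alternative pairs became called and 21 had another sign. The latter were in genes with changes near 0 such as Npas2, Rora and Csnk1d and markers such as Clec4f and Fcgr2b. No paired analysis was possible because the livers of each time came from different mice. With 3 livers a time, no test for outlying values was run, and the lowest correlation within ZT21 or ZT1 was 0.9862, between ZT21 replicates 1 and 2.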
